A study of Mus musculus with 7 samples.

Results

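The enzymes described here make and rearrange disulfide bonds, the links between cysteine residues that hold many secreted proteins in shape, in the endoplasmic reticulum (ER) of sorted mouse Paneth cells. The 10 genes were chosen by name from 52550 counted genes: the oxidases Ero1l, Ero1lb and Qsox1, the protein disulfide isomerases P4hb, Pdia3, Pdia4, Pdia6 and Txndc5, the related Agr2, and Creld2. Ero1lb was picked for its lower level after DSS in these same libraries, so its difference between the groups is described with no test. All 10 passed the low-count filter that left 17449 genes for testing. RefSeq lists Ero1l as Ero1a and Ero1lb as Ero1b.

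RNA was sequenced from 7 libraries of Paneth cells, the antimicrobial secretory cells of small-intestinal crypts. All mice were Lgr5-EGFP-IRES-CreERT2, a line in which the Lgr5 locus drives a green fluorescent protein and an inducible Cre recombinase, of strain C57BL/6J. The 4 DSS libraries came from mice aged 12, 10, 10 and 10 weeks that drank 3% dextran sulfate sodium (DSS), which injures the gut lining, for 7 days, with cells taken 3 days after DSS was withdrawn. Mice aged 12, 12 and 10 weeks that stayed on water gave the 3 control libraries. Cells were sorted on CD24 and side scatter after removal of TER119+, CD31+ and CD45+ cells. The comparison asks how Paneth cells respond to gut inflammation.

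An ER oxidase and an isomerase work as a pair. The oxidase passes electrons from the isomerase to oxygen, which makes hydrogen peroxide, and the oxidised isomerase then hands its disulfide to a newly made protein or reshuffles a wrong one. Many of these genes are induced by the unfolded protein response, in which the sensors IRE1, ATF6 and PERK report misfolded protein, and the factors ATF6 and XBP1 bind a promoter motif called the ER stress response element (ERSE). Paneth cells load the ER heavily, since their lysozyme and alpha-defensins are secreted and disulfide-bonded.

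The ERSE is the sequence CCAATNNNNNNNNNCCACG, in which N is any base, and it was looked for on both strands in RefSeq windows from 250 bases before to 50 bases after each transcription start (build GRCm38.p6, the same assembly as mm10). It was found at 3 of the 10 members, Ero1lb, Pdia6 and Creld2, and in 39 of all 32851 windows, or 0.119%. The 3 stretches are shown because they carry this shared motif, in capitals. In Ero1lb and Creld2 the motif lies on the opposite strand and so begins with CGTGG.
Ero1lb: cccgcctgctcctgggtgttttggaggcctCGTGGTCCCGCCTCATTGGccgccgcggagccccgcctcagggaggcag
Pdia6: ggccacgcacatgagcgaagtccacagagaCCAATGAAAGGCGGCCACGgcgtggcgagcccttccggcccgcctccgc
Creld2: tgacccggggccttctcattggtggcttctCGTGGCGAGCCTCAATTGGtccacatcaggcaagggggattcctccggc
The Ero1lb stretch covers chr13:12565652-12565730 on the plus strand, with the motif from base -201 to -183 relative to the start. The Pdia6 stretch covers chr12:17266461-17266539 on the plus strand, with the motif from -98 to -80. The Creld2 stretch covers chr15:88819490-88819568 on the plus strand, with the motif from -126 to -108. All 3 motifs lie upstream of the gene. A match describes these letters and does not show that a factor binds there.

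Other motifs were searched in the same way. ERSE-II (ATTGGNCCACG) was in no member window and in 0.0365% of all windows. The unfolded protein response element (UPRE, TGACGTGG, which contains ACGTG) was in 1 of the 3 Txndc5 windows and in 0.676% of all windows. The short motif ACGTG of hypoxia response elements was at 4 of 10 members, Ero1l, P4hb, Pdia6 and Txndc5, and in 19.6% of all windows, and GCGTG was at 7 of 10 members and in 32.4% of all windows. The 2 fixed parts of the ERSE were also counted alone, CCACG at 7 members and CCAAT at 7 members, against 32.8% and 37.4% of all windows. Txndc5 has 3 annotated starts and so 3 chances to match.

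**Figure D1:**
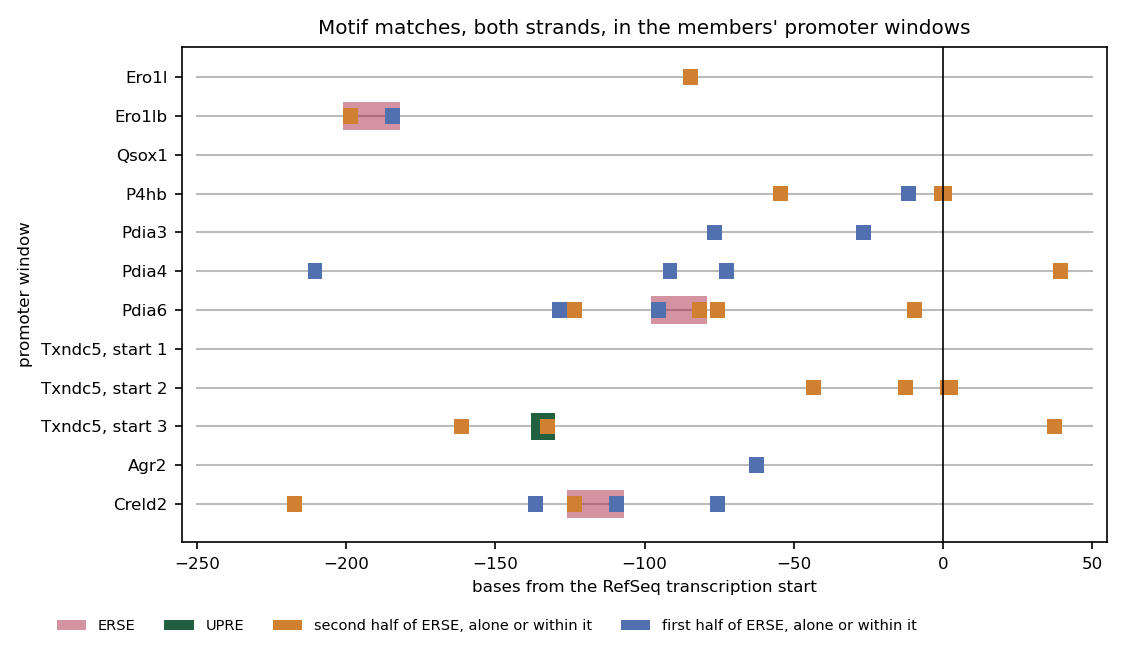
Motif matches on either strand in the promoter windows of the 10 members, 1 line per annotated start, with bases from the RefSeq transcription start on the horizontal axis. Wide pale bars are complete ERSE matches, at Ero1lb, Pdia6 and Creld2, and small bars are its 2 fixed parts; the UPRE match lies at the third Txndc5 start.

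In water the isomerases stood far above the ER oxidases Ero1lb and Ero1l. Levels of different genes are given as TPM, that is counts per kilobase of exon scaled to a total of 1000000 in each library, and serve to compare genes within water. P4hb, the classical protein disulfide isomerase, was at 794 ± 31.7 TPM (SD, n = 3) and ranked 56th of the tested genes. Agr2, an isomerase relative needed for intestinal mucin assembly, was at 763 ± 36.3 TPM, and its libraries overlapped those of P4hb. Pdia3, the isomerase that works with calnexin and calreticulin on glycoproteins, followed at 236 ± 12.5 TPM. Pdia6 (141 ± 2.14 TPM) and Txndc5 (133 ± 10.7 TPM), both isomerases with several thioredoxin-like domains, overlapped each other.

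The lower part of the order began with Pdia4, a further isomerase, at 77.8 ± 11.8 TPM, and Qsox1, which joins an isomerase-like and an oxidase domain in a single protein, at 73.3 ± 4.94 TPM. These overlapped each other as well. Creld2, an ER protein with EGF-like domains that is induced by ER stress, was at 61.6 ± 6.61 TPM, under every water library of Qsox1. The ER oxidases were lowest, Ero1lb at 14.1 ± 1.79 TPM and Ero1l at 11.4 ± 1.09 TPM, with overlapping libraries. P4hb thus exceeded Ero1lb 56.4-fold and Ero1l 69.9-fold per length in water.

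Between the groups, all 10 estimates were lower in DSS, and none of the 9 members other than Ero1lb passed the test. Log2 changes are of CPM (counts per 1000000 counted reads) after TMM scaling, DSS relative to water, and the test was edgeR's quasi-likelihood test with Benjamini-Hochberg adjustment over all tested genes. The 9 log2 changes ran from -0.51 to -0.16 with adjusted p-values of 0.230 to 0.549, and 0% of all genes were called in either direction. At an unadjusted p under 0.05 there were 4 of the 9 (Pdia6, Txndc5, Agr2 and Creld2), and 7.35% of all tested genes were lower at that level. DESeq2 called 1 of the 9, Agr2 (adjusted p = 0.0426), beside 2.24% of 13223 genes called lower. In bulk RNA, fewer cells of a type and less RNA per cell cannot be told apart.

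For 2 of these 9 members, P4hb and Agr2, every DSS library lay under every water library, as it did for Ero1lb. The same held for 7.51% of all tested genes, and for 11.8% of the 5138 genes whose average log2 CPM reached 5. None of the members lay above water in every DSS library, as 7.4% of genes did. The count of 2 became 5 without water 3 and 6 without DSS 4, where 10.5% and 10.3% of genes lay below. With library totals in place of TMM it became 0, and there the median log2 change of all genes was 0.23 and the median of the 9 members was -0.05. Between groups TPM moves with the makeup of the library as well. The secreted Paneth cargo was 30.2% of counts in water and 22.0% in DSS, and its part in the TPM values was not tested. On the TPM scale 8 of the 10 members had a higher mean in DSS, with P4hb at 837 ± 107 TPM against 794 ± 31.7 TPM. The exceptions were Ero1lb, at 13.2 ± 1.14 TPM in DSS against 14.1 ± 1.79 TPM, and Agr2, at 729 ± 229 TPM against 763 ± 36.3 TPM. The lower values given below are thus lower relative to most other genes, as TMM scaling measures them.

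**Figure D2:**
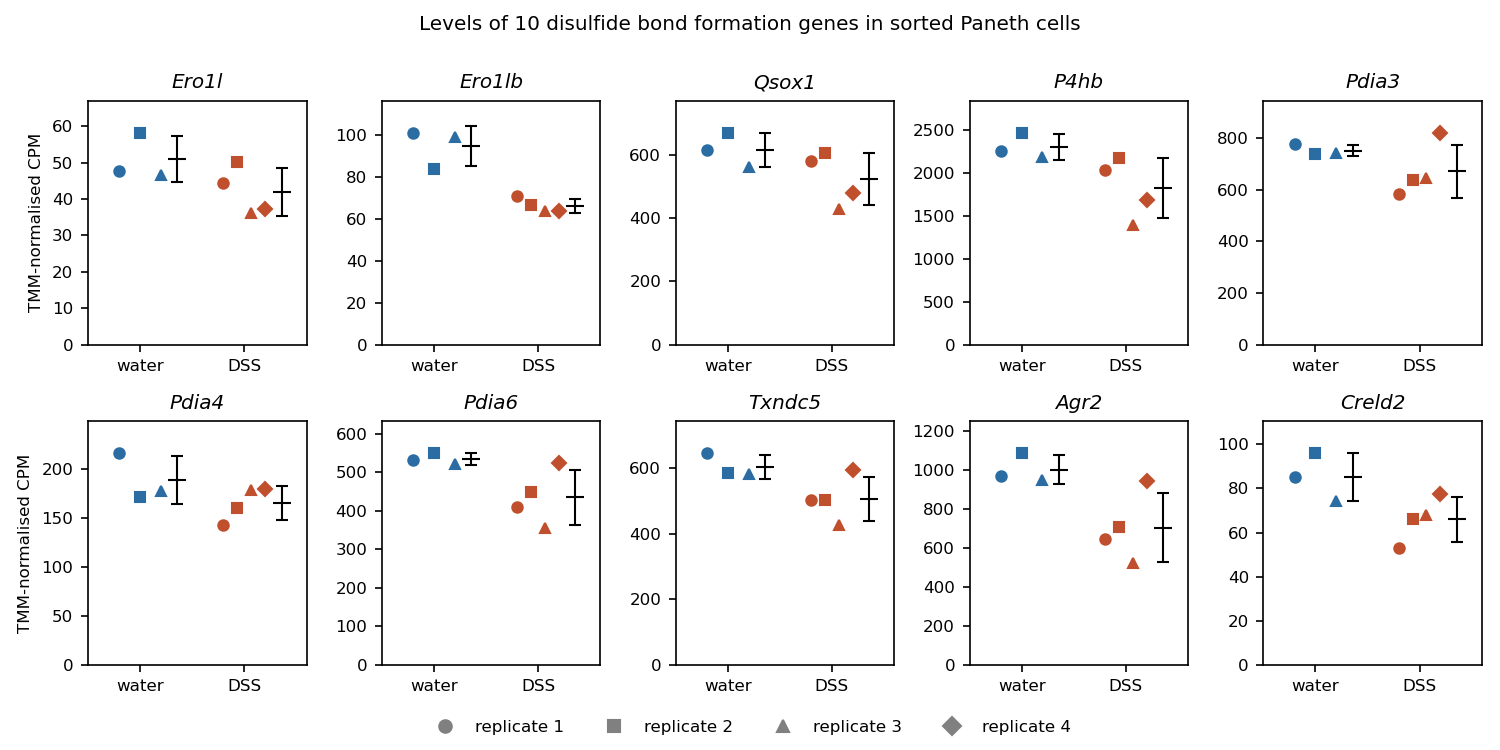
TMM-normalised CPM of each of the 10 genes (1 panel each, vertical axes starting at 0) in 3 water libraries (blue) and 4 DSS libraries (orange), with the mean and SD in black and a symbol per replicate number. The groups are apart for Ero1lb, P4hb and Agr2 and overlap for the other members. The DSS libraries of Ero1lb, picked on these values, lie closest together relative to their mean, which does not hold for its water libraries.

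Ero1lb, an ER oxidase known from highly secretory tissues such as pancreas and stomach, had 101, 83.8 and 99.2 CPM in water 1 to 3. It had 70.7, 66.7, 63.8 and 63.9 CPM in DSS 1 to 4. All 4 DSS libraries were thus under the lowest water library. The means were 94.7 ± 9.48 CPM (SD, n = 3) and 66.3 ± 3.23 CPM (SD, n = 4), 30.0% lower in DSS, with a log2 change of -0.51. The SD among DSS libraries was 4.87% of the mean for Ero1lb, which was picked on these values, and 10.7% to 25.2% for the other members. Among water libraries it was 10.0% for Ero1lb and 2.74% to 12.8% for the other members, so its water values were not the closest. Without 1 library at a time its log2 change lay between -0.60 and -0.47, and with library totals only it was -0.28.

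Ero1l, the widely expressed ER oxidase, which is also induced by low oxygen, had 47.8, 58.2 and 46.7 CPM in water and 44.5, 50.1, 36.1 and 37.2 CPM in DSS. DSS 2 lay within the water range and the other DSS libraries below it. Its log2 change was -0.28 ± 0.13 (edgeR adjusted p = 0.335), where ± gives the SE for log2 changes here and below. This SE was derived from the test, as the size of the log2 change over the square root of its quasi-likelihood F statistic. The log2 change of Ero1l was -0.17 without water 2, whose level was the highest. The ratio of Ero1lb to Ero1l counts was 2.12, 1.44 and 2.12 in water and 1.59, 1.33, 1.77 and 1.72 in DSS, so that the groups overlapped in the balance of the ER oxidases.

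Qsox1, which can act in the Golgi and outside the cell, had 616, 670 and 563 CPM in water and 580, 605, 428 and 481 CPM in DSS. DSS 1 and DSS 2 lay within the water range, while DSS 3 and DSS 4 lay under it. Its log2 change was -0.23 ± 0.13 (edgeR adjusted p = 0.421), and -0.15 without DSS 3. The low level of DSS 3 and DSS 4 was shared by Ero1l and by P4hb.

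P4hb, the most abundant member, had 2258, 2467 and 2180 CPM in water and 2032, 2172, 1394 and 1686 CPM in DSS. DSS 2 was just under water 3, whereas DSS 3 was well under it. The means were 2302 ± 149 and 1821 ± 350 CPM (SD, n = 3 and 4), a log2 change of -0.34 ± 0.15 (edgeR adjusted p = 0.331). Without DSS 3 the log2 change was -0.23.

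Pdia3 had 776, 737 and 741 CPM in water and 585, 636, 645 and 820 CPM in DSS. Its DSS 4 library was the highest of all 7 and the other DSS libraries were below water, so the groups overlapped. The log2 change was -0.16 ± 0.12 (edgeR adjusted p = 0.549). It was -0.27 without DSS 4 and -0.10 without DSS 1, and its sign turned with library totals only, at 0.08.

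Pdia4 had 216, 171 and 178 CPM in water and 143, 160, 179 and 180 CPM in DSS. DSS 3 and DSS 4 lay within the water range, and DSS 1 was lowest. The log2 change was -0.19 ± 0.11 (edgeR adjusted p = 0.439), -0.08 without water 1, and 0.05 with library totals only, again of the other sign.

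Pdia6 had 531, 550 and 521 CPM in water and 409, 449, 356 and 524 CPM in DSS. DSS 4 alone reached the water range, which was narrow (SD 2.74% of the mean). The log2 change was -0.30 ± 0.12 (edgeR adjusted p = 0.289). Txndc5 had 647, 587 and 582 CPM in water and 504, 503, 428 and 594 CPM in DSS, again with DSS 4 alone in the water range. Its log2 change was -0.26 ± 0.11 (edgeR adjusted p = 0.314). On the opposite strand, exons of Gm31834 and Bmp6 cover 6.92% and 4.99% of the Txndc5 exon length, and counting without strand could affect the reads in these overlaps.

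Agr2 had 965, 1085 and 946 CPM in water and 642, 709, 520 and 942 CPM in DSS. The groups did not overlap, but only just: DSS 4 was next to water 3, while the other DSS libraries lay far lower. The means were 999 ± 75.0 and 703 ± 177 CPM (SD, n = 3 and 4), a log2 change of -0.51 ± 0.18 (edgeR adjusted p = 0.230). Its spread among DSS libraries, 25.2% of the mean, was the widest of the 10. The log2 change was -0.68 without DSS 4 and -0.39 without DSS 3.

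Agr2 is also a product of goblet cells, the mucus-secreting neighbours of Paneth cells. The 13 goblet markers summed to 11203 to 12344 CPM in water and to 9407 to 14210 CPM in DSS, with DSS 3 lowest and DSS 4 highest, the same 2 libraries as for Agr2. Among them Tff3, a trefoil peptide, had 1229 CPM in DSS 4 and 580 to 774 CPM in the other DSS libraries, and Zg16, a mucus lectin, had 198 CPM in DSS 4 and 38.6 to 70.4 CPM in the others. Muc2, the main intestinal mucin, was instead highest in DSS 2 among the DSS libraries, with 3027, 3502, 1943 and 2678 CPM in DSS 1 to 4 and 3080, 4102 and 2589 CPM in water. Clca1, a secreted mucus protein, was above water in every DSS library, with 193, 754, 210 and 585 CPM against 74.4, 104 and 114 CPM. No goblet marker of the 13 was without counts, and Spink4 made up 30.9% of the sum. The part of goblet cells in the Agr2 values was not tested.

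Creld2 had 85.4, 96.1 and 74.2 CPM in water and 52.9, 66.0, 67.7 and 77.7 CPM in DSS. DSS 4 lay above the lowest water library and the other DSS libraries below all of them. The log2 change was -0.37 ± 0.13 (edgeR adjusted p = 0.234) and -0.27 without DSS 1. Of the 3 genes with an ERSE, Ero1lb was highest in DSS 1 among the DSS libraries, Creld2 was lowest there, and Pdia6 was lowest in DSS 3.

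**Figure D3:**
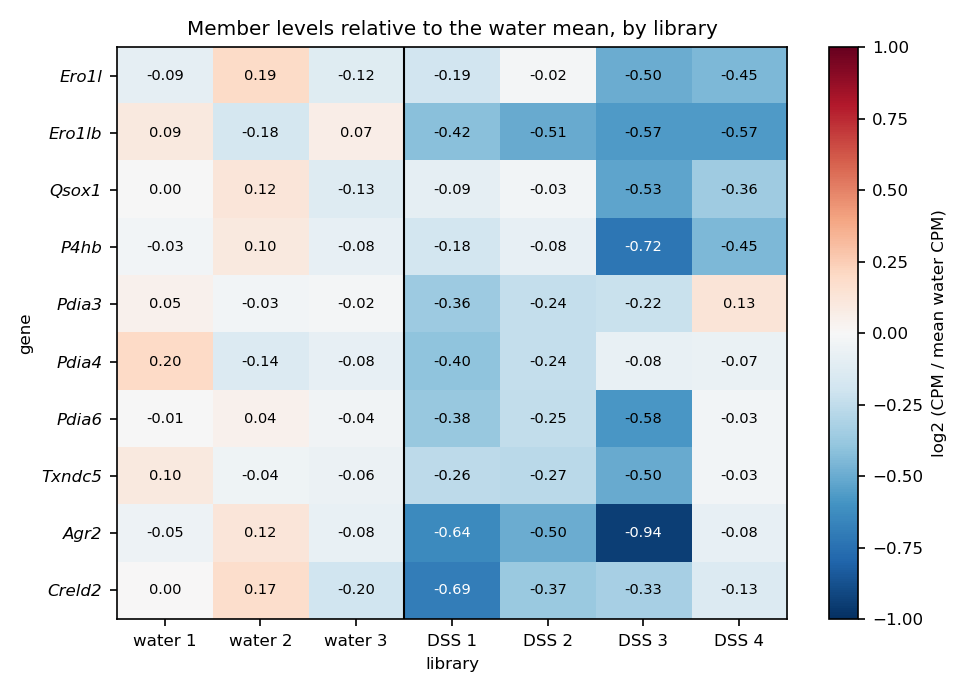
Log2 of the CPM over the mean water CPM for the 10 genes (rows) in 7 libraries (columns), blue below and red above the water mean. DSS 3 is the lowest DSS library for 7 members, down to -0.94 for Agr2, 6 members lie between -0.13 and 0.13 in DSS 4, and Ero1lb stays between -0.57 and -0.42 in every DSS library.

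The DSS libraries thus differed in which members were low. Relative to the water mean, the median of the 10 members was -0.37 for DSS 1, -0.24 for DSS 2, -0.51 for DSS 3 and -0.11 for DSS 4. In DSS 3, 7 of the 10 genes had their lowest DSS value, and in DSS 1 the other 3 (Pdia3, Pdia4 and Creld2). In DSS 4, 6 had their highest DSS value (Pdia3, Pdia4, Pdia6, Txndc5, Agr2 and Creld2), whereas Ero1l, Ero1lb, Qsox1 and P4hb were 0.36 to 0.57 below the water mean there on the log2 scale. Against all 3 water libraries, DSS 1 had 9 members lower, DSS 2 had 8, DSS 3 had 9 and DSS 4 had 5. Each of these counts includes Ero1lb, which was picked for its lower level. The share of all genes lower in a single DSS library was not computed, and the 7.51% given above is for all 4 DSS libraries at once. The counts thus describe the libraries and are no result about the members.

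**Figure D4:**
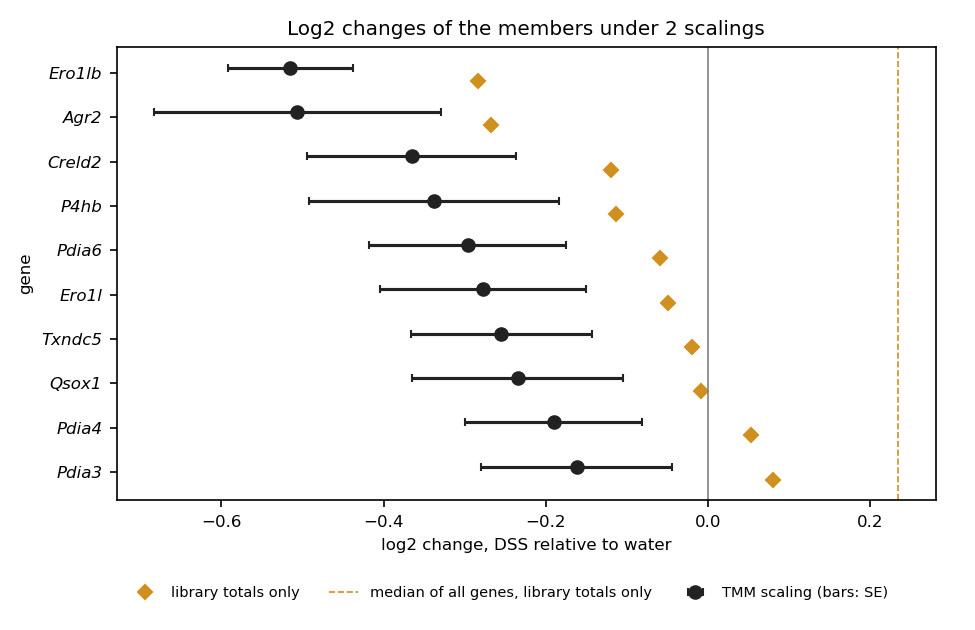
Log2 change of each member, DSS relative to water, with TMM scaling (black, bars are SE) and with library totals only (orange diamonds); the dashed line is the median of all genes, 0.23, with library totals only. All 10 estimates are below 0 with TMM, whereas Pdia3 and Pdia4 are above 0 with library totals only, and all 10 diamonds lie left of the dashed line. The bar of Ero1lb comes from the fit of the same difference on which the gene was picked, so its short length is no support for that difference.

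Together the 10 genes made up 6243, 6505 and 5930 CPM in water and 5062, 5416, 4116 and 5406 CPM in DSS, each DSS library under each water library. Their share of all counts without TMM scaling was 0.567% ± 0.0194 on water and 0.535% ± 0.0629 after DSS (SD, n = 3 and 4), with overlapping libraries. Beside them the RNA was summed for a cargo list of 24 genes of disulfide-bonded secreted Paneth proteins, among them lysozyme and alpha-defensins. No protein was measured, and which of the enzymes fold which cargo was not tested. This cargo summed to 320355, 346548 and 326945 CPM in water and to 274330, 229822, 161466 and 166683 CPM in DSS. Of the 24 genes, 18 had a log2 change below 0 and 6 above it, up to 1.10. In 9 every DSS library lay under every water library, and in 0 above (7.51% and 7.4% of all tested genes). Lyz1 alone, which is in the sum, had 99788 to 108138 CPM in water and 38988 to 77876 CPM in DSS. Alpha-defensins, and Lyz1 with Lyz2, are near-identical copies between which reads may be split, so the sum is given.

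Per 1000 CPM of cargo there were 19.5, 18.8 and 18.1 CPM of the enzymes in water. In DSS there were 18.5, 23.6, 25.5 and 32.4 CPM. DSS 1 lay within the water range and the other DSS libraries above it. The summed enzyme RNA was thus lower in CPM but not lower relative to the summed cargo RNA. No test was made on these sums, since the genes were chosen with results known.

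**Figure D5:**
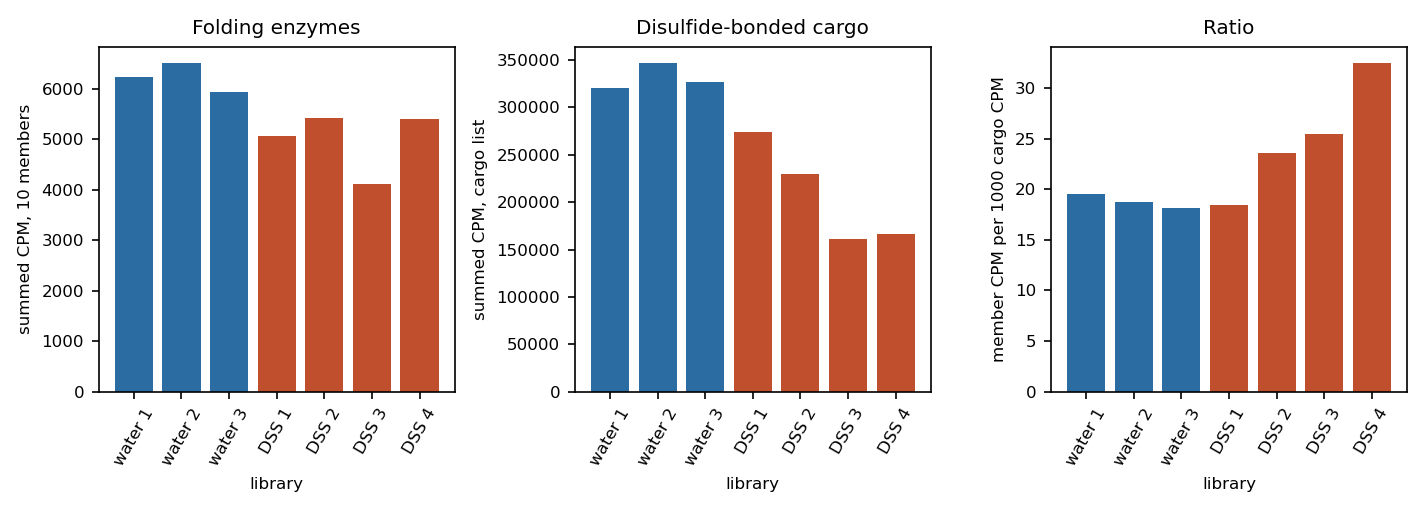
Bars per library, from 0, of the summed CPM of the 10 enzymes (left), the summed CPM of 24 disulfide-bonded Paneth cargo genes (middle) and their ratio (right), water in blue and DSS in orange. Both sums are lower in every DSS library than in every water library, and the ratio is above the water range in DSS 2, DSS 3 and DSS 4.

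Other genes of ER thiol chemistry were described as a list. Of 25 listed, 22 were tested, 0 were called, 6 had every DSS library under every water library and 0 every one above (7.51% and 7.4% of all tested genes), and the median log2 change was -0.12, against -0.28 for the 9 members and -0.0015 for all genes. Erp44, which holds ER oxidases back in the early secretory pathway, had 152, 157 and 160 CPM in water and 128, 123, 113 and 125 CPM in DSS. Its log2 change was -0.36 ± 0.06 (edgeR adjusted p = 0.123). Selenof, a selenoprotein partner of the glycoprotein folding sensor, was at -0.31 ± 0.09 (adjusted p = 0.186), and Tmx1, a membrane-bound isomerase, at -0.17 ± 0.06 (adjusted p = 0.246).

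Prdx4, a peroxiredoxin that uses the hydrogen peroxide made by ER oxidases to form further disulfides, is named for that role and was chosen after its values were seen. It had 24.5, 17.0 and 23.5 CPM in water and 19.4, 19.2, 20.0 and 25.5 CPM in DSS, with overlapping groups and a log2 change of -0.04 ± 0.15 (edgeR adjusted p = 0.920).

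The wider folding machinery was described beside the 7.51% of all tested genes, and 11.8% of those with an average log2 CPM from 5 up, that lay below water in every DSS library. Of 20 ER chaperones and lectins, 13 had every DSS library under every water library, with a median log2 change of -0.32, and of 16 genes of ER-associated degradation 12 did, with a median of -0.24. No gene of either list was called. Manf, a secreted ER stress protein, was at -0.39 ± 0.06, and Dnajb11 and Dnajc3, partners of the chaperone BiP, at -0.38 ± 0.06 and -0.55 ± 0.10, each with an edgeR adjusted p of 0.123. Derl2, a channel protein of degradation, was at -0.25 ± 0.07 (adjusted p = 0.166), Selenos at -0.37 ± 0.11 (adjusted p = 0.183) and Edem3, a mannosidase of that pathway, at -0.30 ± 0.09 (adjusted p = 0.188).

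Of 15 sensors and transcription factors of the unfolded protein response, 5 had every DSS library under every water library (7.51% of all tested genes) and 0 every one above (7.4%). Estimates were below 0 for 11 of the 15 and above 0 for 4, up to 0.05, with a median of -0.17. Xbp1 averaged 340 ± 36.7 CPM on water and 253 ± 26.5 CPM after DSS (SD, n = 3 and 4), and its log2 change was -0.43 ± 0.10 (edgeR adjusted p = 0.142). Atf4, the effector of PERK, was at -0.37 ± 0.10 (adjusted p = 0.167) and Creb3l2, a membrane-bound factor of secretory cells, at -0.47 ± 0.14 (adjusted p = 0.187).

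Genes that share the ERSE were described on their own. The motif did not come from these libraries, but the genes were gathered after values were seen. An ERSE or ERSE-II was found at 49 genes, of which 32 were tested, 3 of them members. Of the other 29, 22 had a log2 change below 0, 9 had every DSS library under every water library (7.51% of all tested genes), 0 had every one above, and the median was -0.19. The 9 of them on the lists used here had a median of -0.32, and all were in the chaperone and lectin or degradation lists described above. The 20 on none of the lists had a median of -0.13, with 14 below 0 and 4 separated. Over all tested genes 50.3% of estimates were below 0.

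Lists tied to other inducers of Ero1l, low oxygen and CHOP, were described as well. Of 17 tested hypoxia response genes 1 had every DSS library below water, or 5.88% against 7.51% of all tested genes: P4ha1, a collagen prolyl hydroxylase subunit that forms its enzyme with P4hb, with means of 24.7 ± 4.11 and 15.2 ± 1.72 CPM (SD, n = 3 and 4) and a log2 change of -0.70 ± 0.13 (edgeR adjusted p = 0.123). The list's median was 0.05, with 11 of 17 estimates above 0, and Car9 at 0.24 ± 0.09 (adjusted p = 0.267) and Pfkfb3 at 0.44 ± 0.18 (adjusted p = 0.294). Of 13 targets of PERK and CHOP, a factor that induces Ero1l, 2 had every DSS library below water, with the same 7.51% over all genes, and the median was -0.44. Chac1, a glutathione-degrading enzyme, averaged 50.3 ± 43.5 CPM on water and 8.22 ± 7.63 CPM after DSS, a log2 change of -2.65 ± 0.73 (adjusted p = 0.169). Ppp1r15a was at -0.36 ± 0.12 (adjusted p = 0.218) and Sesn2 at -0.52 ± 0.22 (adjusted p = 0.303).

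The genes most like Ero1lb over the 7 libraries were not members. By Pearson's r of log2 CPM with Ero1lb, described with no p, over 9134 named genes, the first 5 were Fam84a (0.987), Nrd1 (0.981), Kif5b (0.980), Elmod2 (0.978) and Ptp4a1 (0.977). Fam84a had 41.3, 34.8 and 39.7 CPM in water and 31.5, 27.3, 26.7 and 26.5 CPM in DSS. Its order of libraries within water was that of Ero1lb, which its choice by r favours. Kif5b and Elmod2 were instead highest in water 3 among the water libraries. Ptp4a1, a phosphatase, averaged 44.6 ± 2.08 CPM on water and 34.2 ± 1.39 CPM after DSS. An r of at least 0.9 was reached by 172 genes, or 1.88%. Of the members, Txndc5 was nearest with 0.691, at rank 1173, and Pdia3 farthest with 0.418, at rank 2636. These correlations include the difference between the groups, on which Ero1lb was picked.

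Markers of Paneth cells were high in all libraries, and all 13 matched Paneth markers had counts. They summed to 235417 to 251939 CPM in water and to 116101 to 203010 CPM in DSS. Of the 13, 5 had every DSS library under every water library and 0 every one above (7.51% and 7.4% of all tested genes). Lyz1, 39.0% of the sum, was between 99788 and 108138 CPM on water and between 38988 and 77876 CPM after DSS, a value that shares reads with Lyz2. Plasma cells are rich in ER enzymes. The 14 plasma cell markers summed to 101 to 106 CPM in water and 101 to 111 CPM in DSS, led by Cd38 (43.9% of the sum), and Sdc1 had 34.3 to 43.9 CPM. The other defining markers were low: Jchain was at most 0.624 CPM, Mzb1 at most 0.144 CPM, Igkc at most 0.0892 CPM and Igha at most 1.30 CPM in any library. Pancreatic acinar genes summed to 3.08 to 4.32 CPM over all libraries, and 90.3% of that was Cela1. Summed tuft markers were 623 to 676 CPM in water and 594 to 1147 CPM in DSS, high in DSS 2 and DSS 3. Enteroendocrine markers summed to 80.5, 1857 and 3264 CPM in water 1 to 3 and to 854 to 1685 CPM in DSS, so that the water libraries were far apart. The part of these cell types in the values was not tested.

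Ages, RNA isolation days and file names were uneven between the groups. Each isolation day held libraries of 1 group, so that day and treatment cannot be told apart. With the libraries of 10-week mice only, 1 on water and 3 on DSS, the log2 change of Ero1lb was -0.61 and the median of the 9 others was -0.18. With the libraries whose file names carry the number 6, the 3 on water and DSS 4, Ero1lb was at -0.57 and the median of the 9 was -0.09, with Agr2 at -0.09, P4hb at -0.46 and Pdia3 at 0.12, of the other sign.

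Each value sums the exons of a gene, placed here in build mm10. Chromosome 13 holds Ero1lb (ENSMUSG00000057069.7, 12565874 to 12611396, plus strand) and Txndc5 (ENSMUSG00000038991.17, 38500079 to 38528824, minus strand). Ero1l (ENSMUSG00000021831.8) lies on chromosome 14 from 45283092 to 45318572 and P4hb (ENSMUSG00000025130.11) on chromosome 11 from 120560298 to 120573253, both on the minus strand. On chromosome 12, on the plus strand, lie Pdia6 (ENSMUSG00000020571.12) from 17266545 to 17284770 and Agr2 (ENSMUSG00000020581.11) from 35992907 to 36004087. Pdia3 (ENSMUSG00000027248.13) is on the plus strand of chromosome 2 from 121413775 to 121438687, and Creld2 (ENSMUSG00000023272.3) on that of chromosome 15 from 88819646 to 88826681. On minus strands are Pdia4 (ENSMUSG00000025823.9), at 47796141 to 47813430 of chromosome 6, and Qsox1 (ENSMUSG00000033684.14), at 155776029 to 155812889 of chromosome 1. The smallest count of any member in any library was 1010, for Ero1l, and the largest 73734, for P4hb.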

How the data were processed

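The authors deposited raw counts per gene in 7 files. Per the file headers, featureCounts 1.5.3 summed exons by gene over GENCODE mouse release 15 models, with primary alignments, a minimum overlap fraction of 0.8, no strand option and marked duplicates kept. Build mm10, DESeq2, featureCounts 1.5.2 and STAR 2.5.3a are named in the submitters' processing notes. Symbols came from GENCODE release 21 (52403 of 52550 genes matched). Total counts ran from 23175708 to 32451653, where 3 counts are 0.0924 to 0.129 CPM. Whether libraries came from separate animals is not stated, and p-values then cover only the spread among these samples, which may be technical.

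The test was edgeR 4.0.16 in R 4.3.3 (filterByExpr, TMM, quasi-likelihood, no covariate, threshold 0.05 after Benjamini-Hochberg over 17449 genes), tested on simulated data. Every change planted in those data was larger than that of any member. The simulation thus does not show whether changes as small as those of the members would be called. DESeq2 1.42.0 and limma 3.58.1 were alternatives. Named were all members, up to 3 genes of each pathway list with the smallest p and an average log2 CPM of 3 or more, and the 5 most like Ero1lb. Members, lists and tests were chosen with earlier results of these data known. The genes with an ERSE were gathered after values were seen. Promoters came from RefSeq (GRCm38.p6) and all 10 members matched. Replicates were numbered in accession order.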

Additional observations from a re-analysis of the deposited data

Results flagged for a closer look

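Among the 4 DSS libraries, 13 series were examined for 1 library far from the others: the CPM of the 10 members, their sum, the Ero1lb to Ero1l ratio and the ratio of enzymes to cargo. None passed Dixon's 95% limit for 4 samples. The nearest were Pdia3, with DSS 4 high (0.745), and the summed members, with DSS 3 low (0.728).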

How the results depend on the processing

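Over 17 alternatives, 165 of 170 log2 changes of the 10 members were counted as unchanged. This meant the same direction, side of the threshold and, for the untested Ero1lb, size within the replicate spread. Of the rest, 3 turned in sign, 1 passed the threshold and 1, for Ero1lb, moved by more. For the other 9 members size was not part of this count, and none was called in the main fit. Estimates that came near 0 thus counted as unchanged. With library totals only, Qsox1 was at -0.0087 and Txndc5 at -0.020, against -0.23 and -0.26 with TMM. With library totals only, Pdia3 turned to 0.081 and Pdia4 to 0.053, Ero1lb moved to -0.28, the log2 ratio of the summed members moved from -0.32 to -0.084, and the count of the 9 members with separated groups went from 2 to 0. The median of all genes moved to 0.23 there, and 14.99% of genes were below 0 against 50.3% with TMM. DESeq2 called 1 of the 9, Agr2, whose adjusted p ran from 0.0426 to 0.841 over the alternatives. DESeq2 called 642 genes in all, edgeR without a low-count filter 441, edgeR without DSS 1 303, edgeR without DSS 4 or with the libraries numbered 6 in their file names 9 each, and edgeR with library totals only 2135, against 0. With the libraries whose file names carry the number 6, Pdia3 turned to 0.12 and the separated members were 5, where 29.4% of all genes lay below. Leaving out 1 library at a time gave 2 to 6 separated members, the highest without DSS 4, and a log2 ratio of the sum from -0.36 to -0.23. The causes of these differences were not tested. No paired analysis was possible because the labels give the groups no shared replicate numbers.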
